A study of Homo sapiens with 4 samples.

Results

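Desmosomes are plaque-like junctions that rivet neighbouring epithelial cells together. Desmosomal cadherins (desmogleins and desmocollins) reach across the gap between the cells, their tails bind the armadillo proteins plakoglobin and plakophilins, and desmoplakin ties this plaque to the keratin filaments. In stratified epithelia such as the oral lining, DSG2 and DSC2 are widely expressed paralogs, whereas DSG3, DSC3 and PKP1 are characteristic of the stratified tissue and are strongest toward its basal or suprabasal layers. The 10 genes described here are the members of this junction given by name: the cadherins DSG2, DSG3, DSC2 and DSC3, the armadillo genes JUP, PKP1, PKP2 and PKP3, the plakin DSP, and PERP, a membrane protein of desmosomes. They were matched by symbol to Ensembl gene identifiers, a step that uses no measured value. The members themselves were chosen with earlier results of these data known. They are 10 of the 67008 genes in the count table, and all 10 were among the 14303 genes with enough reads to be tested.

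RNA was sequenced from SAS cells, a human oral squamous carcinoma line, after viral delivery of a short hairpin RNA. The 2 Ctrl libraries received a hairpin against luciferase (shLuc) and the 2 shSTAU1 libraries a hairpin against STAU1, which encodes the double-stranded RNA-binding protein Staufen1. All 4 libraries carry the labelled genotype WT and the treatment viral infection. The sample labels name the cell line as C3H 10T1/2, a mouse fibroblast line, while the organism is given as human and the growth protocol and the series design name SAS cells. Only 1 hairpin per target appears in the labels, and nothing states whether the 2 libraries of a group came from separate cultures, so the p-values measure the spread between these libraries, which may be technical.

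Libraries held 32206655 to 36301574 counts each, and the lowest count of any desmosome gene in any library was 676. STAU1 was measured at 249 and 251 CPM (counts scaled to a common library size, with the trimmed mean of M values) in Ctrl and at 41.6 and 41.5 CPM in shSTAU1, a log2 fold change of -2.59 ± 0.13 (SE, n = 2 per group, adjusted p = 0.00103, edgeR quasi-likelihood test with Benjamini-Hochberg adjustment). The counts were those of an epithelial cell: the summed level of 8 epithelial markers was 8960 to 11439 CPM, against 10.2 to 22.8 CPM for 8 fibroblast markers and 7.73 to 18.1 CPM for 6 immune and endothelial markers. Of the 8 fibroblast markers, COL3A1, DCN, LUM and THY1 stood at or below 0.030 CPM in every library, whereas COL1A1, COL1A2, PDGFRA and PDGFRB were above that in every library. COL1A1, a fibrillar collagen gene, was called lower, at 15.7 and 20.2 CPM in Ctrl and 7.84 and 6.25 CPM in shSTAU1 (log2 fold change -1.35, adjusted p = 0.0360, edgeR), whereas COL1A2 (1.01), PDGFRA (-0.85), VWF (-0.49) and CDH5 (-0.37) were not called, and the part of these markers in the desmosome values was not tested. In such bulk RNA, fewer cells that express a gene and less RNA per cell cannot be told apart.

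Of the 10 desmosome genes, 1 passed the adjusted threshold of 0.05. This was PKP1, which was lower in shSTAU1. Across all tested genes 2.60% passed in either direction and 1.48% passed as lower, and these shares are the background for a count of 1 in 10. At an unadjusted p under 0.05 there were 3 desmosome genes, PKP1, DSC3 and DSG3, against 24.5% of all tested genes. The same 3 genes were the ones whose shSTAU1 libraries both lay below both Ctrl libraries, a pattern held by 28.0% of all tested genes. PKP3 was the 1 gene with both shSTAU1 libraries above both Ctrl libraries, a pattern held by 28.5% of all tested genes. The fold changes of the 10 genes were split evenly, with 5 positive and 5 negative, and their median log2 fold change was -0.027, beside 0.0059 over all tested genes.

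**Figure D1:**
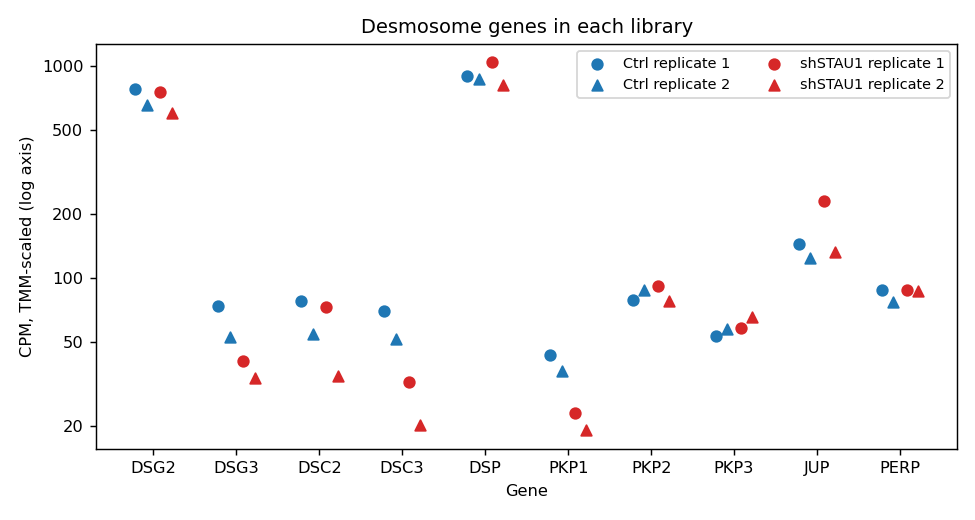
Level of each desmosome gene in each of the 4 libraries, in CPM scaled by the trimmed mean of M values, on a log axis. Blue marks are Ctrl and red marks shSTAU1, with circles for replicate 1 and triangles for replicate 2. The red marks of DSG3, DSC3 and PKP1 lie below both blue marks, whereas those of DSG2, DSC2, DSP, PKP2, JUP and PERP overlap with them and those of PKP3 lie just above.

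The 3' untranslated regions (3' UTRs) of the members were examined for 2 words of 7 bases, AAGAGAA and AGAGAAA, on the sense strand, each in the longest coding transcript. The words had been picked in an earlier examination of these same fold changes, so their presence in a gene that is lower is a description and not independent evidence. The sites of the 3 genes with lower shSTAU1 libraries and of 2 genes without a detectable difference are shown with 10 bases on each side, 5' to 3', with GRCh38 coordinates and the word in capitals. They lie in the last exon of each transcript, and where 2 matches overlap, as in the first PKP1 site, only the first is in capitals.

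DSG3, chr18:31477153-31477179, plus strand, exon 16: ttctcacaatAAGAGAAttttgaaata

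DSG3, chr18:31478452-31478478, plus strand, exon 16: gttatataagAGAGAAAttgaaattaa

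DSC3, chr18:30992747-30992773, minus strand, exon 16: tgctttctccAGAGAAAttttaaaata

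PKP1, chr1:201332452-201332478, plus strand, exon 15: ggcttttcctAGAGAAAgagaacaagg

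PKP1, chr1:201332945-201332971, plus strand, exon 15: ttttggaaatAGAGAAAatcaataaat

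PKP2, chr12:32791686-32791712, minus strand, exon 14: tcttttccacAGAGAAAggcaactgtg

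PERP, chr6:138091748-138091774, minus strand, exon 3: ctacatttgtAAGAGAAtatgcacgtg

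PERP, chr6:138090157-138090183, minus strand, exon 3: tgtttctcatAGAGAAAtgtaatctgg

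At least 1 word was present in 6 of the 10 genes, DSG3, DSC2, DSC3, PKP1, PKP2 and PERP, and absent from DSG2, DSP, PKP3 and JUP. Over 11729 tested genes with a 3' UTR the share was 31.6%. The share depended on length, from 11.2% of genes with a 3' UTR under 1000 bases to 88.2% of those with 5000 bases or more. It was 33.1% from 1000 to 2000 bases, 50.5% from 2000 to 3000 and 68.8% from 3000 to 5000. From the shortest to the longest range, the members with a word were 0 of 2, 1 of 2, 2 of 3, 2 of 2 and 1 of 1. The 31.6% is therefore not a like background for the 10 members. The members had long 3' UTRs, with a median of 2353.5 bases against 1009 over all tested genes. DSC2, with 9175 bases, held 6 matches, 2 of which overlap, whereas DSG2, with 2265 bases, held 0. PKP2 and PERP held a word, and their log2 fold changes were 0.03 and 0.09.

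**Figure D2:**
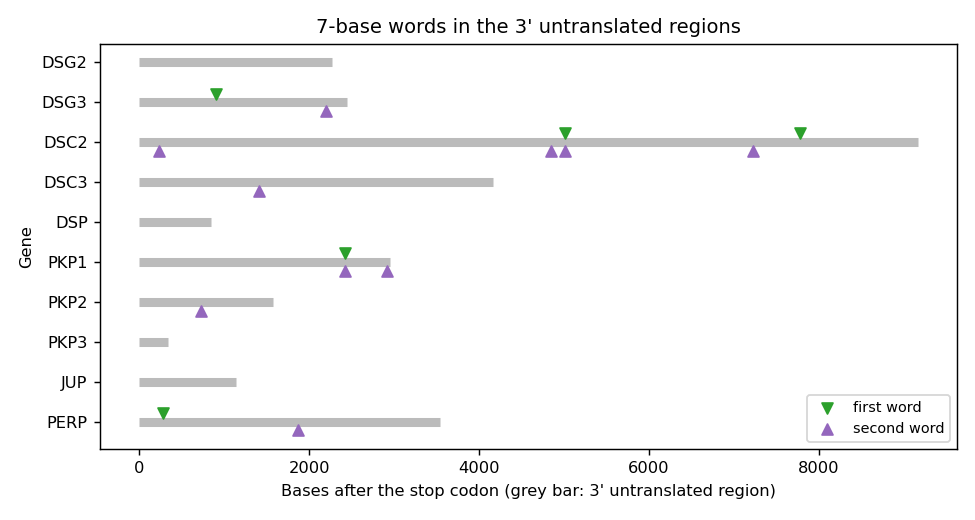
Positions of the 7-base words along the 3' UTR of each desmosome gene, in bases after the stop codon; grey bars give the length of the 3' UTR, green marks the first word and purple marks the second. The words occur in 6 of the 10 genes, including the long 3' UTRs of DSC2 and DSC3, and are absent from those of DSG2, DSP, PKP3 and JUP.

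The desmogleins are the adhesive cadherins that bind opposite partners across the intercellular space. DSG2, the desmoglein of most epithelia, was measured at 781 and 654 CPM in Ctrl and 755 and 599 CPM in shSTAU1. The groups overlapped, and its log2 fold change was -0.08 ± 0.16 (SE, n = 2 per group, 95% interval -0.45 to 0.28, adjusted p = 0.775, edgeR). DSG3, the desmoglein of stratified epithelia and the main autoantigen of pemphigus vulgaris, was measured at 73.4 and 52.9 CPM in Ctrl and at 40.5 and 33.8 CPM in shSTAU1. Both shSTAU1 libraries were lower than both Ctrl libraries. The mean in shSTAU1 was 58.9% of that in Ctrl, the log2 fold change was -0.76 ± 0.19 (95% interval -1.22 to -0.31), and its adjusted p of 0.0731 in edgeR missed the threshold, while DESeq2 gave 0.00623.

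The desmocollins pair with the desmogleins. DSC3, the desmocollin of basal stratified cells, had the largest absolute log2 fold change of the 10 genes, with 69.7 and 51.7 CPM in Ctrl and 32.2 and 20.2 CPM in shSTAU1. The libraries did not overlap, and the shSTAU1 mean was 43.1% of the Ctrl mean. The log2 fold change was -1.21 ± 0.25 (95% interval -1.79 to -0.63), with an adjusted p of 0.0510 in edgeR and of 4.83e-05 in DESeq2. DSC2, its widely expressed paralog, stood at 77.6 and 54.6 CPM in Ctrl and at 73.4 and 34.4 CPM in shSTAU1. One shSTAU1 library of DSC2 was between the Ctrl libraries and the other was below them, and the log2 fold change of -0.30 ± 0.33 had a 95% interval of -1.07 to 0.48 (adjusted p = 0.620, edgeR).

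All 4 cadherin genes lie in a single stretch of chromosome 18 (GRCh38, chr18:30990008-31549008, 559001 bases), in the order DSC3 (ENSG00000134762, chr18:30990008-31042815), DSC2 (ENSG00000134755, chr18:31058840-31102522), DSG3 (ENSG00000134757, chr18:31447795-31478702) and DSG2 (ENSG00000046604, chr18:31498043-31549008). DSC3 and DSC2 are on the minus strand and are 16024 bases apart, and DSG3 and DSG2 are on the plus strand and are 19340 bases apart. Each of these neighbouring pairs therefore held 1 gene whose shSTAU1 libraries were both lower than the Ctrl libraries and 1 gene whose libraries overlapped. The other cadherins of the family, DSG1, DSG4 and DSC1, which belong mostly to the differentiating layers of skin, were at or near 0, with a total of 2 counts of DSC1 in 1 Ctrl library and 0 counts of DSG1 and DSG4 in any library. The antisense gene DSG2-AS1 shares 171 exon bases with DSG2 and had 0 counts in all 4 libraries. The kit captures coding exons, so this does not show that the antisense gene was silent.

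The armadillo proteins link the cadherin tails to the plakin, and their genes are scattered over the genome. PKP1 (ENSG00000081277) lies at chr1:201283452-201332993 on the plus strand, PKP2 (ENSG00000057294) at chr12:32790745-32896840 on the minus strand, PKP3 (ENSG00000184363) at chr11:392614-404908 on the plus strand and JUP (ENSG00000173801) at chr17:41754604-41786931 on the minus strand. PKP1, the plakophilin of stratified epithelia that stabilises the plaque, fell from 43.5 and 36.6 CPM in Ctrl to 23.1 and 19.1 CPM in shSTAU1. The groups were well apart, with the highest shSTAU1 library below the lowest Ctrl library, and the shSTAU1 mean was 52.8% of the Ctrl mean. The log2 fold change was -0.92 ± 0.18 (SE, n = 2 per group, 95% interval -1.33 to -0.51, adjusted p = 0.0429, edgeR). This call was lost without the filter on low counts (adjusted p = 0.114) and without either Ctrl library, at 0.490 without Ctrl replicate 1 and 0.123 without Ctrl replicate 2. The fit without Ctrl replicate 1 called 0 genes in all, STAU1 included, with 1502 genes at an unadjusted p under 0.05.

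PKP2, the plakophilin also found in simple epithelia and heart muscle, did not differ detectably, at 78.5 and 87.8 CPM in Ctrl and 92.1 and 77.7 CPM in shSTAU1. Its groups overlapped and its log2 fold change was 0.03 ± 0.15 (95% interval -0.31 to 0.37, adjusted p = 0.919, edgeR). PKP3, which binds most desmosomal proteins, was at 53.6 and 57.6 CPM in Ctrl and at 57.8 and 65.5 CPM in shSTAU1. Both shSTAU1 libraries of PKP3 were just above the Ctrl libraries, but its log2 fold change of 0.15 ± 0.14 had a 95% interval of -0.18 to 0.48 (adjusted p = 0.547, edgeR), and was 0.047 without shSTAU1 replicate 2 and 0.25 without shSTAU1 replicate 1.

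JUP encodes plakoglobin, which serves both desmosomes and adherens junctions. Its values were 145 and 124 CPM in Ctrl and 231 and 132 CPM in shSTAU1. A single library, shSTAU1 replicate 1, was far above the other 3, which lay close together. The log2 fold change of 0.43 ± 0.25 (95% interval -0.14 to 1.01, adjusted p = 0.316, edgeR) rested on that library and was -0.02 without it. DSP (ENSG00000096696, chr6:7541575-7586717, plus strand), the plakin that anchors keratin filaments, was at 891 and 866 CPM in Ctrl and at 1038 and 816 CPM in shSTAU1. The shSTAU1 libraries of DSP lay on either side of the Ctrl libraries, and the log2 fold change was 0.08 ± 0.15 (95% interval -0.26 to 0.42, adjusted p = 0.778, edgeR). PERP (ENSG00000112378, chr6:138088505-138107511, minus strand), a membrane protein needed for desmosome assembly in stratified epithelia and a target of p53 and p63, stood at 87.7 and 76.7 CPM in Ctrl and at 87.9 and 86.8 CPM in shSTAU1. One shSTAU1 library of PERP was within the Ctrl range and the other was just above it, and the log2 fold change was 0.09 ± 0.13 (95% interval -0.23 to 0.40, adjusted p = 0.723, edgeR).

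**Figure D3:**
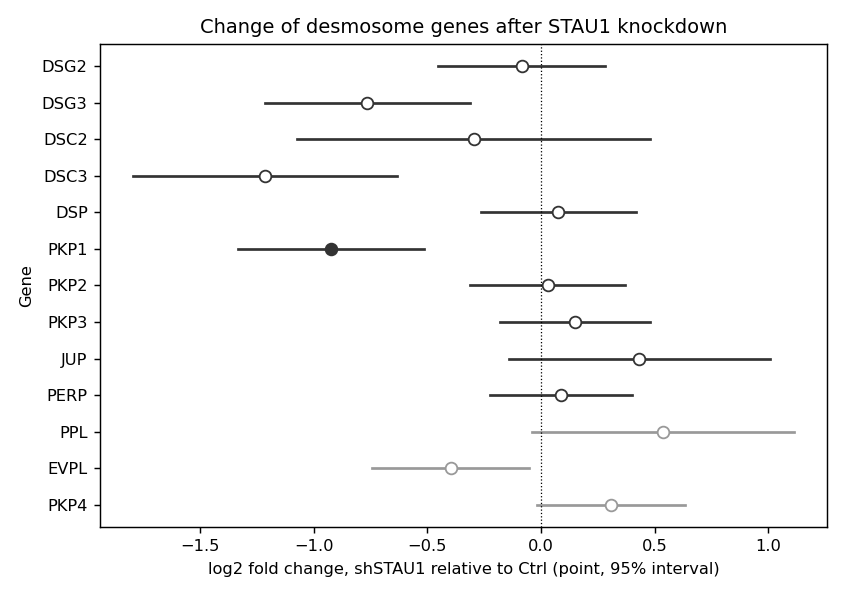
Log2 fold change of shSTAU1 relative to Ctrl (point) with its 95% interval (line) from the edgeR fit, for the 10 desmosome genes (black) and the 3 other tested desmosome genes (grey); a filled point passed the adjusted threshold. PKP1 is the only filled point, and the intervals of DSG3, DSC3, PKP1 and EVPL do not reach 0.

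Counts of different genes depend on gene length, and they were therefore divided by the length of the longest coding transcript. Differences between genes in how well the kit captured their exons were not corrected, so levels of different genes and paralog shares are approximate. On this scale of CPM per kilobase, the Ctrl means ran from DSG2 (123 ± 15.4, SD, n = 2) and DSP (89.7 ± 1.8) through JUP (38.5 ± 4.2) to PKP3 (19.8 ± 1.0), PKP2 (19.6 ± 1.6) and PERP (19.2 ± 1.8). Below them came DSG3 (11.4 ± 2.6), DSC3 (8.75 ± 1.83), PKP1 (7.35 ± 0.90) and DSC2 (5.36 ± 1.32). The values of PKP3, PKP2 and PERP overlapped, as did those of DSG3 and DSC3 and those of DSC3 and PKP1, so the order within these groups was not resolved by 2 libraries. With the kit's coding-exon capture in mind, the same counts were also divided by coding length, and there PERP moved to the second place at 142 ± 13 and DSP to the third at 102 ± 2.1, where PERP has 579 coding bases in a transcript of 4290 bases. The lower part of the order of means also changed, with DSC2 at 24.4 ± 6.0 above PKP3, DSC3 and DSG3, and PKP1 last at 17.9 ± 2.2. On this scale the libraries of DSC2, PKP3, DSC3 and DSG3 overlapped, as did those of PKP1 with DSC3 and DSG3. The order among them was thus not resolved, and the order of the means depends on the length used.

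Within each group of paralogs, the stratified-epithelium member took a smaller share in shSTAU1. DSG3 made up 9.02% and 7.86% of the summed DSG2 and DSG3 level per transcript kilobase in Ctrl and 5.36% and 5.63% in shSTAU1. DSC3 made up 61.5% and 62.7% of DSC2 and DSC3 in Ctrl and 43.8% and 51.1% in shSTAU1. PKP1 made up 17.5% and 14.0% of the 3 plakophilins in Ctrl and 9.11% and 7.78% in shSTAU1. For each of the 3 shares, both shSTAU1 libraries lay below both Ctrl libraries. DSG3, DSC3 and PKP1 are the genes already described as lower without overlap, a pattern held by 28.0% of all tested genes. The shares are therefore not a separate observation. With 2 libraries per group an exact two-sided permutation test cannot give a p below 0.333, and these shares are therefore given without a test. The size of the shares depended on the length used. Per coding length DSG3 made up 9.52% and 8.30% in Ctrl and 5.66% and 5.95% in shSTAU1, and DSC3 made up 47.5% and 48.8% in Ctrl and 30.6% and 37.1% in shSTAU1. The PKP1 share on that scale was 27.1% and 22.2% in Ctrl and 14.9% and 13.1% in shSTAU1, with the groups again apart. In the DSG3 and DSC3 shares, each of 2 genes, a change of length cannot alter the order of the libraries. Their separation on the second scale is therefore no further check.

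**Figure D4:**
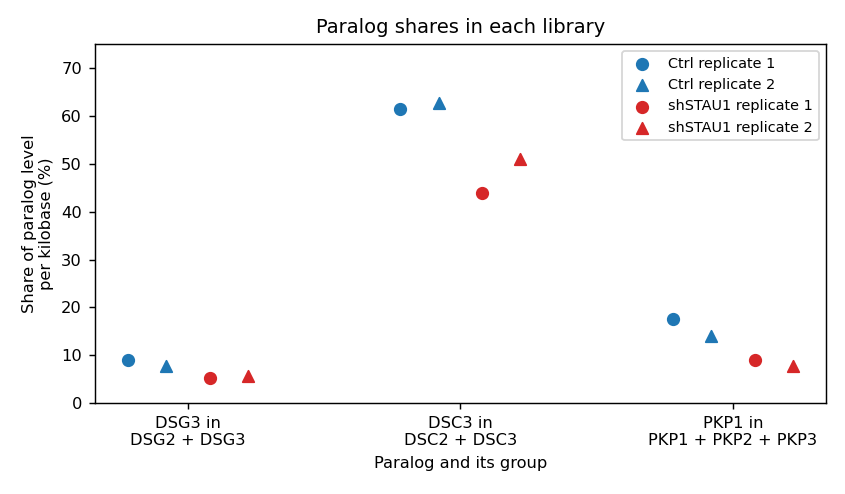
Share of each stratified-epithelium paralog in the summed level of its paralog group, in percent, per kilobase of transcript, in each of the 4 libraries. In all 3 groups the red shSTAU1 marks lie below the blue Ctrl marks.

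Of 7 further desmosome genes, 3 had enough reads to be tested, and 0 of them passed in edgeR. At an unadjusted p under 0.05 there was 1, against 24.5% of all tested genes. DESeq2 called 0, against 12.0% of the genes to which it gave an adjusted p. Periplakin (PPL) stood at 125 and 111 CPM in Ctrl and at 219 and 124 CPM in shSTAU1, a log2 fold change of 0.54 with shSTAU1 replicate 1 again far above the other 3 libraries. Envoplakin (EVPL) was 52.9 and 59.3 CPM in Ctrl and 45.2 and 39.9 CPM in shSTAU1 (log2 fold change -0.40), and the plakophilin-related PKP4 was 71.3 and 69.9 CPM in Ctrl and 80.3 and 94.6 CPM in shSTAU1 (0.31). Their groups did not overlap, but their adjusted p in edgeR was 0.155 and 0.224.

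Keratins are the filaments that DSP anchors. Of 12 tested keratins 1 passed the threshold, KRT5, the basal type II keratin, which rose from 3236 and 3387 CPM in Ctrl to 5488 and 4893 CPM in shSTAU1 (log2 fold change 0.65 ± 0.12, adjusted p = 0.0408, edgeR). The call was lost with library size scaling, without the filter and without either Ctrl library. Its partner KRT14 had 802 and 559 CPM in Ctrl and 1625 and 901 CPM in shSTAU1, with an adjusted p of 0.112. KRT6B had only 0, 14, 12 and 58 counts in the 4 libraries and resembles its paralog KRT6A in sequence, so its log2 fold change of 2.21 was not informative (95% interval -0.60 to 5.02). The direction of KRT5 was thus opposite to that of DSG3, DSC3 and PKP1, other genes of the same epithelium, and that of the epithelial marker SFN (1.43, adjusted p = 0.0285) was likewise higher. LAMB3, another epithelial marker, fell by 0.84 on the log2 scale (adjusted p = 0.0358).

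Among the genes of the neighbouring adhesive junctions, 1 of 11 tested adherens junction genes passed. This was CDH2, N-cadherin, which fell from 124 and 110 CPM in Ctrl to 53.4 and 68.8 CPM in shSTAU1 (log2 fold change -0.94 ± 0.16, adjusted p = 0.0360, edgeR). This call was lost without the filter and without either Ctrl library. Those of SFN, LAMB3 and COL1A1 were lost without Ctrl replicate 1, as was every other call, and their calls under the other settings are not given here. AFDN (-0.35) and NECTIN4 (0.32) did not pass. Of 7 tested tight junction genes 0 passed in edgeR, with 2 at an unadjusted p under 0.05 and 1 call in DESeq2. The shares over all genes were 24.5% at that unadjusted p and 12.0% in DESeq2. TJP3 (0.55) and CGN (-0.51) did not pass. TJP3 had only 8, 12, 17 and 14 counts in the 4 libraries, and its 95% interval was -0.92 to 2.01.

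The hemidesmosome fastens basal cells to the matrix through integrin α6β4. All 6 of its tested genes had negative log2 fold changes, with a median of -0.36, although 0 of 6 passed in edgeR. Over all tested genes 7092 were negative and 7211 positive. The values of DST (-0.08) and CD151 (-0.11) were small, with 95% intervals that include 0. ITGB4 (-0.67, adjusted p = 0.0765), PLEC (-0.55, 0.0649) and COL17A1 (-0.43, 0.0825) came closest. These 3 genes had unadjusted p-values under 0.05 and were called by DESeq2. Of 11 genes known to regulate desmosomes 0 passed in edgeR, 2 had an unadjusted p under 0.05 and 1 passed in DESeq2. For both lists the background was 24.5% of all tested genes at an unadjusted p under 0.05 in edgeR. In DESeq2 it was 12.0% of the genes given an adjusted p. GRHL1, a transcription factor of epithelial barrier genes, had a log2 fold change of -0.89 at a low level of 5.5 and 4.3 CPM in Ctrl. The sheddase ADAM10, which cleaves cadherins, had one of -0.68 (adjusted p = 0.0893), and the transcription factor KLF5 one of 0.39. TP63, the transcription factor that directs stratified epithelial identity, was not called and its groups overlapped.

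**Figure D5:**
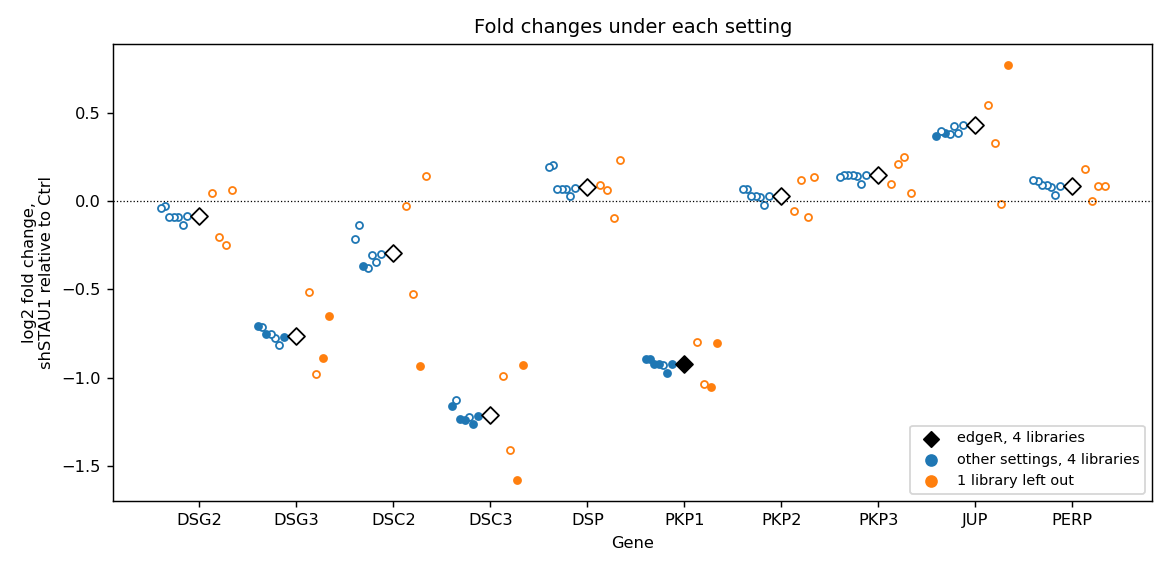
Log2 fold change of each desmosome gene under edgeR with all 4 libraries (black diamond), under the other settings with all libraries (blue) and with 1 library left out (orange); filled marks passed an adjusted p of 0.05. The values of DSG3, DSC3 and PKP1 stay below 0 under every setting, and those of PKP3 stay above 0, whereas those of DSG2, DSC2, DSP, PKP2, JUP and PERP cross 0 when 1 library is left out.

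DESeq2 called 3 of the 10 genes, DSG3, DSC3 and PKP1, each lower, against 12.0% of the genes to which it gave an adjusted p. The value of DSC2 depended on the shSTAU1 libraries, with a log2 fold change of -0.93 without replicate 1 (adjusted p = 1.39e-05, edgeR) and of 0.14 without replicate 2. A group of 1 library is assumed in these fits to vary like the other group.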

How the data were processed

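RNA-seq libraries of SAS cells (2 Ctrl, 2 shSTAU1) were made by the authors from total RNA with the TruSeq RNA Exome kit, which captures coding exons. The deposited values are whole-number counts per Ensembl gene. The submitters' processing notes name Partek and the build hg38, and the aligner, the counter and its strand setting are not given in the sources used here. All 67008 rows carried an identifier.

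Counts were tested with edgeR 4.0.16 (R 4.3.3): default filterByExpr, which kept 14303 genes and 99.9% of counts, TMM scaling, quasi-likelihood test, Benjamini-Hochberg adjustment over all tested genes, threshold 0.05. The study states no test for this experiment. Alternatives were DESeq2 1.42.0, limma-voom (limma 3.58.1), library size scaling, no filter, length and GC correction, a replicate block, other thresholds and leaving out each library. A coding-length scale was added after the data were seen. The edgeR fit, alone and with the block or the correction, DESeq2 and limma-voom were tested on simulated data, whose results are not given here. Positions, lengths and 3' UTRs are from GENCODE 29 (GRCh38).

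The members and lists were chosen with earlier results of these data known. All 10 members are described, with, from each list, every gene past the threshold and, where fewer than 3 passed, those with the largest absolute log2 fold changes up to 3. One gene that this rule would name is not reported here. Between replicates the biological coefficient of variation was 19.1%, and replicates of a group varied beyond counting error (chi-square divided by its degrees of freedom, 25.4 in Ctrl and 61.6 in shSTAU1). Depth was 32206655 to 36301574 counts per library.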

Additional observations from a re-analysis of the deposited data

How the results depend on the processing

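Of 130 fold changes of desmosome genes under alternatives, 97 kept direction and call, 21 passed the threshold where the main value had not, 3 lost the call and 9 changed sign. With all libraries, DSG3 passed in DESeq2 (-0.77), at the looser adjusted threshold of 0.10 and by a rule of 1.5-fold plus unadjusted p under 0.05 (-0.76 in both). These looser rules reuse the main fold changes, so no direction could change under them. DSC3 passed in DESeq2 (-1.22), with library size only (-1.26), in limma-voom (-1.24) and under both looser rules (-1.21). PKP1 lost its call with no filter (-0.93), and PKP2 changed sign with library size only (-0.021). The number of desmosome genes called was 3 in DESeq2, 2 with library size only, 2 in limma-voom, 0 with no filter and 3 under each looser rule, all of them lower. Over all genes the main edgeR test called 372 (161 higher, 211 lower) and DESeq2 1449 (773 higher, 676 lower). Library size only called 404 (132 higher, 272 lower, 2.82% of those tested), limma-voom 363 (154 higher, 209 lower, 2.54%) and no filter 11 (2 higher, 9 lower). Of the 14303 genes tested, the 0.10 threshold called 1585 (837 higher, 748 lower) and the fold rule 2098 (925 higher, 1173 lower).

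Same-numbered libraries share only a number, and their deviations from the group means correlated at 0.27. With the replicate block, 4087 genes were called (2208 higher, 1879 lower), 28.6% of those tested. The desmosome genes called with it were 5, 4 lower and 1 higher: DSG3 (-0.75), DSC3 (-1.23), DSC2 (-0.37), PKP1 and JUP (0.38). With the replicate block and the length and GC correction, 3566 genes were called (1989 higher, 1577 lower), 24.9% of those tested. Here 4 desmosome genes were called, 3 lower and 1 higher: DSG3 (-0.71), DSC3 (-1.16), PKP1 and JUP (0.37). These shares of all tested genes are the background for the member and list counts. The block called 3 other desmosome genes (3 with the correction), 5 keratins (4), 3 adherens junction genes (1), 2 tight junction genes (2), 4 hemidesmosome genes (3) and 4 regulators (4). DESeq2 called 2 keratins, 1 tight junction gene, 3 hemidesmosome genes and 1 regulator, against 12.0% of the genes to which it gave an adjusted p. Library size only and no filter each called 0 keratins, and no filter called 0 adherens junction genes. The 0.10 threshold called 3 hemidesmosome genes and 1 regulator, and the fold rule 2 keratins, 1 hemidesmosome gene and 2 regulators.

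Leaving out each library in turn, with a lone library assumed to vary like the other group, gave DSG2 -0.25 to 0.062, DSG3 -0.98 to -0.51, DSC2 -0.93 to 0.14, DSC3 -1.58 to -0.93, DSP -0.10 to 0.23, PKP1 -1.05 to -0.80, PKP2 -0.088 to 0.14, PKP3 0.047 to 0.25, JUP -0.017 to 0.77, PERP -0.0018 to 0.18 and STAU1 -2.60 to -2.58. STAU1 lost its call without Ctrl replicate 1, where 0 genes passed. The median log2 fold change of the 10 genes ran from -0.17 to 0.074. The desmosome genes called ranged from 0 without either Ctrl library to 4 without either shSTAU1 library (0 to 1 higher, 0 to 4 lower), and all genes called from 0 without Ctrl replicate 1 to 2780 without shSTAU1 replicate 1 (0 to 1537 higher, 0 to 1243 lower). The lists gave 0 to 2 other desmosome genes, 0 to 6 keratins, 0 to 3 adherens junction genes, 0 to 2 tight junction genes, 0 to 3 hemidesmosome genes and 0 to 3 regulators. Each of these fits leaves 1 library in a group, and the share of all tested genes called also shifted between them. The member and list counts are therefore not read as an excess over all tested genes. With 2 libraries per group, small differences cannot be resolved: the cause of these shifts was not tested. By transcript or union-of-exon length DSG2, DSP and JUP had the highest levels, in that order.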
